A study of Mus musculus with 12 samples.

Results

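The 10 genes Hspa5, Herpud1, Dnajb9, Xbp1, Sdf2l1, Pdia4, Hsp90b1, Calr, Creld2 and Manf were followed across a mouse liver RNA-sequencing series that compared liver with and without ischemia, an interruption of blood supply. They were chosen by symbol, as chaperones of the endoplasmic reticulum (ER) and known targets of the transcription factors ATF6 and XBP1. All 10 occurred once among the 53796 rows of the expression table. The series held 12 libraries, 3 in each of 4 groups: RIPK1 D138N, TNFR1/2 KO, WT and Sham. RIPK1 is a kinase recruited to activated TNF receptors, and the D138N substitution makes it kinase-dead. TNFR1 and TNFR2 bind the cytokine TNF, and both were knocked out in the TNFR1/2 KO line per its label. WT and Sham were both of wild-type genotype. Only Sham carried a sham label, and the series title was the reason to take the other 3 groups as the ischemia arm. Neither strain, age, the time after operation nor how the mutant lines were made is given in the sources used here. Sham-operated mutants were not analysed here, so how a mutant differed before the operation and how it responded cannot be told apart. The labels do not say that libraries of a group came from separate animals, so p-values measure no more than the spread among these samples.

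The ER is where secreted and membrane proteins fold, and the liver secretes most proteins of the blood plasma. When unfolded proteins build up there, the sensors of the unfolded protein response (UPR) signal: ATF6, which moves to the Golgi and is cut to release a transcription factor; IRE1 (encoded by Ern1), which splices Xbp1 mRNA so that it encodes the active factor XBP1s; and PERK (encoded by Eif2ak3), which slows translation and raises ATF4 and CHOP. ATF6 and XBP1s raise chaperones, folding enzymes and degradation factors, and ATF6 also raises Xbp1 mRNA. A value per gene cannot show how much Xbp1 mRNA was spliced.

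ATF6 and XBP1s are known to act at promoters through the ER stress response element (ERSE, the half-sites CCAAT and CCACG with 9 bases between them) and its variant ERSE-II (the half-sites ATTGG and CCACG with 1 base between them). Promoters of 300 bases, from 250 before to 50 after the start, were taken from RefSeq (GRCm38.p6) and searched on both strands. Of the 10 genes 9 had a promoter there, and Manf had none. ERSE was found in 4 of the 9, those of Hspa5, Hsp90b1, Calr and Creld2, and in 39 of all 32851 promoters (0.119%). ERSE-II was found in 1 of the 9, that of Herpud1, and in 12 of all 32851 (0.0365%). The UPR element core (TGACGTGG) was found in 0 of the 9 and in 222 of all promoters (0.676%). The promoters of Hspa5 (chr2:34771840-34772139, plus strand), Hsp90b1 (chr10:86705395-86705694, minus strand), Herpud1 (chr8:94386179-94386478, plus strand) and Xbp1 (chr11:5520391-5520690, plus strand) are printed, because the first pair carries ERSE and the values of Herpud1 and Xbp1 parted from those of the other genes. Capitals mark the half-sites of ERSE and ERSE-II, which share CCACG, and an element on the other strand appears as its reverse complement.
Hspa5: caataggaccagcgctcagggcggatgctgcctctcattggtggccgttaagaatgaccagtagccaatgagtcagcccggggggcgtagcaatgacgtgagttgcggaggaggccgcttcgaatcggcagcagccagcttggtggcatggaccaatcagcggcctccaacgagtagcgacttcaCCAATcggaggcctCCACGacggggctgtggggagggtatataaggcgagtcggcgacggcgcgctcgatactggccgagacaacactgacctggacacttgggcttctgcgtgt
Hsp90b1: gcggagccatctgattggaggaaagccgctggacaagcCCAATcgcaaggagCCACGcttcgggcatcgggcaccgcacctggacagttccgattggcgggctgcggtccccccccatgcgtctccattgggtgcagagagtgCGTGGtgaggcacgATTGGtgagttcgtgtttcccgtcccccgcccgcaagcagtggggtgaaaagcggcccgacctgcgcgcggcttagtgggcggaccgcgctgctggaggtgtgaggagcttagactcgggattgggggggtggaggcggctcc
Herpud1: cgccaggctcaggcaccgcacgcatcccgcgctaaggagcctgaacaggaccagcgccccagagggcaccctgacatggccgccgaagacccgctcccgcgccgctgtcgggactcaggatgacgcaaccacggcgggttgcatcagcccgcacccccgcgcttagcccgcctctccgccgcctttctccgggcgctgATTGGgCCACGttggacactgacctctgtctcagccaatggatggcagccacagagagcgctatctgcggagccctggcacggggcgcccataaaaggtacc
Xbp1: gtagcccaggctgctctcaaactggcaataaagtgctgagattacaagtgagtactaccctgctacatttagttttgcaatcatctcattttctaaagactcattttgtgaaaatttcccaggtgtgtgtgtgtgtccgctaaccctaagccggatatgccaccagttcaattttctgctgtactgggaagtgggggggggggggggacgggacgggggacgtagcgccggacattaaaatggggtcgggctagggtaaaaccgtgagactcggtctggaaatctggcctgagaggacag
The element lay at -65 to -47 from the start in Hspa5, on the strand of the gene. Hsp90b1 held an element on each strand, at -212 to -194 and at -107 to -89. The ERSE-II of Herpud1 lay at -52 to -42. In the printed Xbp1 promoter no letters matched any of the motifs, which says only that they are not in this window. A match is a description of the sequence and was not tested for binding.

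On mm10 with the GENCODE M21 annotation, Hspa5 (ENSMUSG00000026864) lies on chromosome 2 at 34771970 to 34777547 and Herpud1 (ENSMUSG00000031770) on chromosome 8 at 94386438 to 94395377. Xbp1 (ENSMUSG00000020484) lies on chromosome 11 at 5520659 to 5525893. Calr shares chromosome 8 with Herpud1, at 84841850 to 84846934. Dnajb9 lies on chromosome 12 at 44205559 to 44210326, Sdf2l1 on chromosome 16 at 17130138 to 17132383 and Pdia4 on chromosome 6 at 47796141 to 47813430. Hsp90b1 lies on chromosome 10 at 86690209 to 86705509, Creld2 on chromosome 15 at 88819646 to 88826683 and Manf on chromosome 9 at 106838312 to 106891979. Exons of Manf overlap those of Rbm15b, Dcaf1 and 4930524O07Rik, which reached at most 2.96, 5.93 and 2.69 FPKM (fragments per kilobase of transcript, scaled to the size of the library). Exons of Hsp90b1 overlap those of 1810014B01Rik and Gm15344, at most 6.69 and 1.71 FPKM. The labels do not say whether counting used the strand, so reads of such pairs cannot be told apart, but these levels were small beside the lowest Manf and Hsp90b1 values of 115 and 146 FPKM.

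FPKM summed to 489348 to 518580 in RIPK1 D138N, 441296 to 512931 in TNFR1/2 KO, 288934 to 303514 in WT and 649373 to 750501 in Sham. Low values fell on whole-number steps, from which 1 FPKM was estimated to stand for 10.9 to 58.8 fragments per kilobase. The estimate differed by group: 33.1, 58.8 and 38.9 in WT libraries a, b and c, and 24.7, 10.9 and 10.9 in Sham. It was 17.9 to 23.4 in RIPK1 D138N and 20.9 to 32.0 in TNFR1/2 KO, so the WT libraries were the deepest. On that estimate every value of the 10 genes rested on at least 526 fragments, with a counting error of at most 4.36%. Tnfrsf1a, which encodes TNFR1, stood at 18.5 ± 3.28 FPKM in TNFR1/2 KO and 35.1 ± 2.90 in WT (SD, n = 3 each), and Tnfrsf1b, which encodes TNFR2, at 6.83 ± 2.70 in TNFR1/2 KO and 9.51 ± 1.20 in WT. In the other groups Tnfrsf1a stood at 19.8 ± 1.10 FPKM in RIPK1 D138N and 69.5 ± 16.5 in Sham, and Tnfrsf1b at 5.52 ± 0.499 in RIPK1 D138N and 6.92 ± 2.69 in Sham. A value per gene cannot show a partial deletion or a point mutation, so these levels do not check the labels. RIPK1 D138N replicates 2 and 3 held Xist, a transcript of female cells, at 20.1 and 23.4 FPKM, and no other library exceeded 0.0824 FPKM. WT and Sham columns could be matched to their group only, so these libraries are called a, b and c. Sham library c stood apart for the genes described here: it was the highest Sham library for 10 of 10, against 42.3% of all tested genes. Its excess over the mean of the other 2 Sham libraries had a median of 0.835 over the 10 genes on the log2(FPKM + 1) scale, and 0.078 over all genes.

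**Figure D1:**
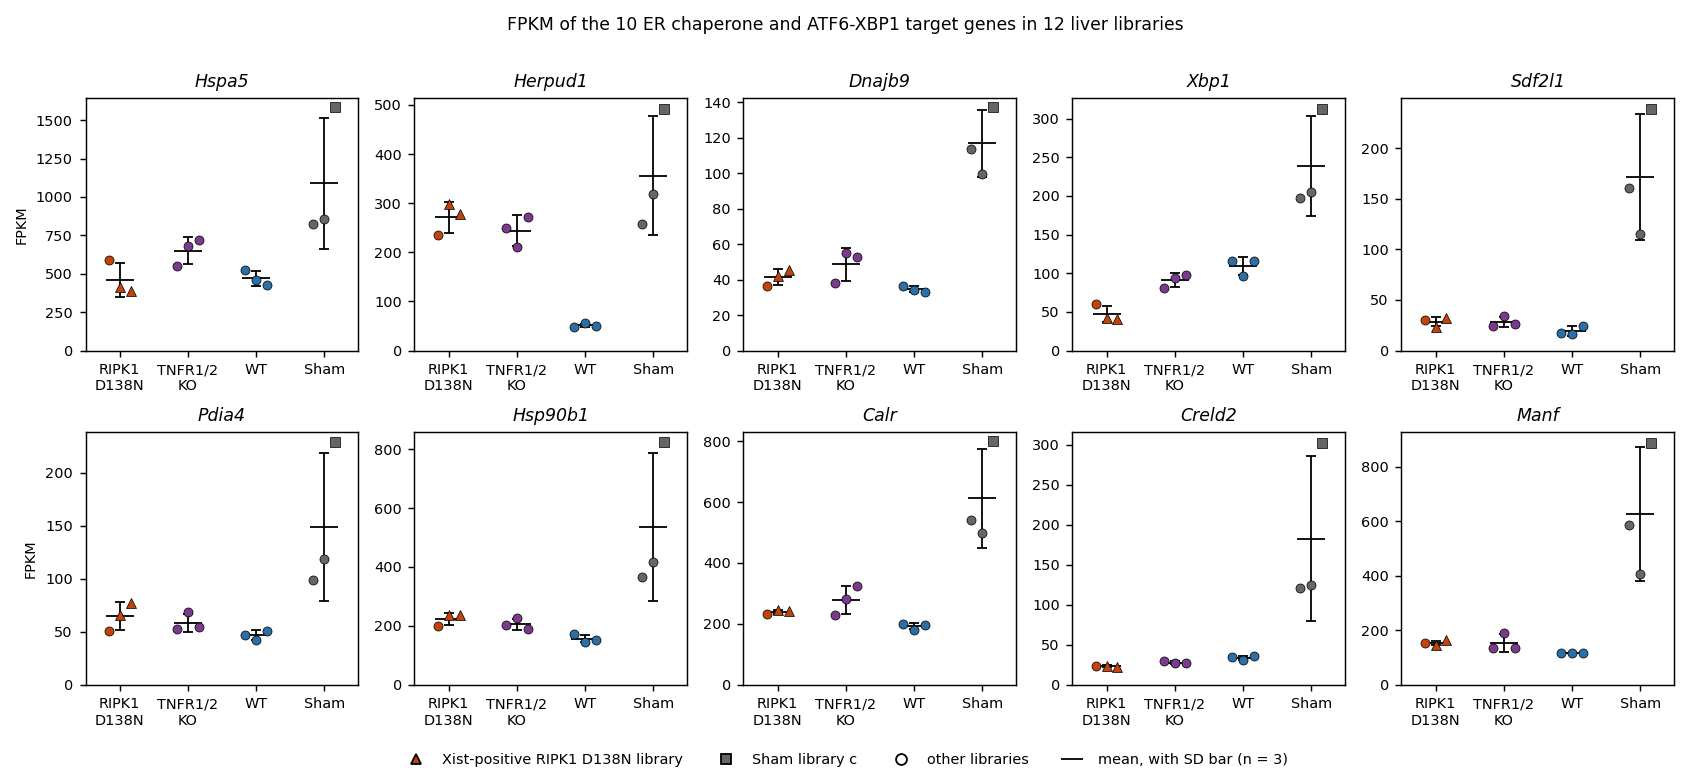
FPKM (y axis, linear, from 0) of each of the 10 genes in the 12 liver libraries, by group, with the mean and SD of 3 libraries. Sham library c, a square, is the highest point in every panel, WT lies below all Sham libraries in every panel, and Herpud1 in both mutants lies between 211 and 299 FPKM, against 47.9 to 55.3 in WT.

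Hspa5, which encodes BiP, the main HSP70 chaperone of the ER, had the highest level of the 10 genes in every group. Per length it averaged 461 ± 109.8 FPKM in RIPK1 D138N, 649.9 ± 88.2 in TNFR1/2 KO, 469.7 ± 50.4 in WT and 1089 ± 429 in Sham (SD, n = 3 each). Creld2 in both mutants and Sdf2l1 in WT were the lowest, at 22.9 ± 1.26, 27.6 ± 1.59 and 19.3 ± 4.59 FPKM, and Dnajb9 was the lowest in Sham, at 117 ± 19.0. In Sham the neighbours Hsp90b1, Calr and Manf, at 536 ± 252, 613 ± 163 and 627 ± 244 FPKM, did not differ beyond their spread. Herpud1 took the second place by level in RIPK1 D138N, the third in TNFR1/2 KO, the sixth in WT and the fifth in Sham. The coefficient of variation of the 10 genes between libraries had a median of 11.6% in RIPK1 D138N, 14.3% in TNFR1/2 KO, 7.96% in WT and 37.7% in Sham, the widest.

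The comparison of WT with Sham addresses the effect of ischemia at normal genotype. All 10 genes were lower in WT than in Sham, at an adjusted p under 0.05 by limma with Benjamini-Hochberg adjustment over all 11718 tested genes, though the signs of Hspa5 and Xbp1 turned with quantile normalization. Lower calls made up 41.9% of all tested genes, and calls in either direction 58.3%. Of all calls 28.1% were higher in WT, and 56.1% with median-of-ratios scaling. No WT library overlapped a Sham library for any of the 10, and 45.6% of all tested genes were non-overlapping in that direction. The median difference of the 10 genes was -1.69 on the log2(FPKM + 1) scale, with a range of -3.04 for Sdf2l1 to -1.09 for Xbp1, against -0.365 for all tested genes. Set relative to that median of all genes, the differences ran from -2.68 for Sdf2l1 to -0.72 for Xbp1. All differences of single genes are on the log2(FPKM + 1) scale, which understates the change of low genes.

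Among the chaperones, Hspa5 stood at 525, 458 and 426 FPKM in WT libraries a, b and c, against 825, 858 and 1583 in Sham. Its difference was -1.15 (SE 0.26, limma adjusted p = 0.00213). Hsp90b1, which encodes GRP94, the HSP90 chaperone of the ER, had 171, 146 and 153 FPKM in WT, against 365, 419 and 825 in Sham (difference -1.67, SE 0.254, limma adjusted p = 0.000108). In both genes Sham library c lay far above its group, while the other Sham libraries were still above every WT library. Calr, a lectin-type chaperone that folds glycoproteins and binds calcium, had 198, 180.2 and 197 FPKM in WT, against 540.3, 498 and 799 in Sham (difference -1.64, SE 0.199, limma adjusted p = 1.83e-05). Pdia4, a protein disulfide isomerase, had 47.2, 42.2 and 51.2 FPKM in WT, against 98.9, 119 and 229 in Sham (difference -1.56, SE 0.271, limma adjusted p = 0.00032). The WT libraries of both lay within a narrow band, and the Sham libraries spread widely above it.

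The co-chaperones and secreted factors were lower in WT too. Sdf2l1, a partner of BiP and ER DnaJ proteins, had 17.0, 16.4 and 24.6 FPKM in WT, against 161, 115 and 238 in Sham, a ratio of means of 0.113 (difference -3.04, SE 0.256, limma adjusted p = 1.06e-06). Manf, a factor that is retained in the ER and secreted under stress, had 116, 117 and 115 FPKM in WT, against 586, 405 and 889 in Sham (difference -2.35, SE 0.247, limma adjusted p = 5.87e-06). Its WT values were almost equal, and its Sham values differed among themselves far more. Creld2, an ER stress-inducible protein with disulfide isomerase activity, had 34.6, 30.8 and 36.0 FPKM in WT, against 121, 125 and 302 in Sham (difference -2.27, SE 0.276, limma adjusted p = 1.89e-05). Dnajb9, which encodes ERdj4, a DnaJ co-chaperone of BiP, had 36.4, 34.3 and 33.3 FPKM in WT, against 113, 99.7 and 137 in Sham (difference -1.71, SE 0.182, limma adjusted p = 6.29e-06). Dnajb9 had the tightest Sham values of the 10 genes, with a coefficient of variation of 16.25%.

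Herpud1, which brings substrates and ubiquitin ligase together in ER-associated degradation, had 47.9, 55.3 and 50.04 FPKM in WT, against 258, 318 and 492 in Sham. The difference was -2.73 (SE 0.221, limma adjusted p = 7.95e-07), a ratio of means of 0.143, and 174 of the 11718 tested genes (1.48%) had a lower one. Xbp1, which encodes the transcription factor, had 116, 96.5 and 116 FPKM in WT, against 197, 205 and 313 in Sham (difference -1.09, SE 0.212, limma adjusted p = 0.000727). It had the smallest difference of the 10 genes.

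The fall of 5 genes depended on how libraries were scaled to each other. With median-of-ratios scaling, which moved the median of all genes to 0.061, 9 of the 10 were called lower, and Hspa5 was not (-0.58, limma adjusted p = 0.0675). Of all tested genes 2806 were called lower with that scaling, and 3165 with quantile normalization. With quantile normalization 5 of the 10 were called lower, namely Sdf2l1, Herpud1, Creld2, Manf and Dnajb9, at -2.16, -1.55, -1.24, -1.12 and -0.71. Under it Calr, Hsp90b1 and Pdia4 stood at -0.52, -0.51 and -0.43 (limma adjusted p = 0.0557, 0.0953 and 0.169), and the signs of Hspa5 (0.23) and Xbp1 (0.18) turned. Without Sham library c all 10 were called lower, as were 4461 of all tested genes, with differences from -2.78 for Sdf2l1 to -0.845 for Hspa5.

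The mutants against WT ask how the loss of RIPK1 kinase activity or of both TNF receptors changes the ischemic liver. These comparisons share the WT libraries, so each is given on its own. In RIPK1 D138N 1 of the 10 genes was called higher and 1 lower, against 29.8% and 21.9% of all tested genes (51.8% in either direction). In TNFR1/2 KO 2 were called higher and 0 lower, against 29.6% and 17.5% of all tested genes (47.1% in either direction). Of all calls 57.6% were higher in RIPK1 D138N and 62.7% in TNFR1/2 KO, and 45.9% and 45.4% with median-of-ratios scaling. At an unadjusted p under 0.05 the counts were 2 in RIPK1 D138N and 3 in TNFR1/2 KO, against 6759 and 6310 of the 11718 tested genes. These shares of the 10 genes were below those of all genes, but not under every setting: in RIPK1 D138N 7 of the 10 were called with quantile normalization, where 6313 of the 11718 tested genes were, and 5 with only the 2 groups fitted, where 5959 genes were. The median difference of the 10 genes was 0.36 in RIPK1 D138N, against 0.11 for all genes, and 0.42 in TNFR1/2 KO, against 0.14 for all genes.

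Herpud1 was the 1 gene of the 10 called higher in both mutants. It had 236, 299 and 278 FPKM in RIPK1 D138N replicates 1, 2 and 3 and 249, 211 and 272 FPKM in TNFR1/2 KO, against 47.9, 55.3 and 50.04 in WT. Every mutant library lay above every WT library, and the mutant values lay between 211 and 299 FPKM, where Sham had 258, 318 and 492. The difference from WT was 2.38 in RIPK1 D138N (SE 0.221, 95% interval 1.90 to 2.86, limma adjusted p = 3.45e-06), a ratio of means of 5.31. In TNFR1/2 KO it was 2.23 (SE 0.221, 95% interval 1.75 to 2.71, limma adjusted p = 6.33e-06), a ratio of 4.78. Larger rises were found in 283 of the 11718 tested genes (2.42%) for RIPK1 D138N and in 307 (2.62%) for TNFR1/2 KO. Across the alternatives tried the Herpud1 difference from WT stayed called, between 1.49 and 2.48 in RIPK1 D138N and between 1.44 and 2.33 in TNFR1/2 KO, the lowest of each with quantile normalization.

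Xbp1 moved the other way in RIPK1 D138N. It had 59.8, 41.7 and 40.7 FPKM there and 80.9, 94.3 and 97.5 FPKM in TNFR1/2 KO, against 116, 96.5 and 116 in WT. The RIPK1 D138N libraries lay below all others, and replicates 2 and 3, the pair that held Xist, were the lowest. The difference from WT was -1.21 in RIPK1 D138N (SE 0.212, 95% interval -1.67 to -0.75, limma adjusted p = 0.00041). Without replicates 2 and 3 it was -0.86, which rests on replicate 1 alone, so no p-value is given. The part of sex in the Xbp1 values was not tested beyond this. In TNFR1/2 KO it was -0.27 (95% interval -0.72 to 0.19, limma adjusted p = 0.322), and it was called lower with median-of-ratios scaling (-0.55, limma adjusted p = 0.0334) and with quantile normalization (-1.19, limma adjusted p = 0.000544).

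Of the other chaperones, 1 call was made in the 2 mutants. Calr had 231, 244 and 243 FPKM in RIPK1 D138N and 229.5, 282 and 323 in TNFR1/2 KO, against 198, 180.2 and 197 in WT. All mutant values were above all WT values, and only the difference in TNFR1/2 KO was called (0.52, SE 0.199, limma adjusted p = 0.0458). That call was lost when WT library a, b or c, TNFR1/2 KO replicate 2 or 3, or RIPK1 D138N replicate 2 or 3 was left out (limma adjusted p = 0.0601 to 0.15), and with median-of-ratios scaling (0.24, adjusted p = 0.286). Calr stood at -0.19 in TNFR1/2 KO and -0.55 in RIPK1 D138N after quantile normalization. Hspa5 had 587, 412 and 385 FPKM in RIPK1 D138N and 550.2, 682 and 718 in TNFR1/2 KO, against 525, 458 and 426 in WT. RIPK1 D138N straddled WT (difference -0.05, 95% interval -0.61 to 0.52, limma adjusted p = 0.894), and TNFR1/2 KO lay above it without passing the test (0.46, 95% interval -0.10 to 1.03, limma adjusted p = 0.161). Hsp90b1 had 199.7, 236 and 235 FPKM in RIPK1 D138N and 204, 225 and 189 in TNFR1/2 KO, against 171, 146 and 153 in WT. These groups did not overlap, but neither mutant passed the test, with differences of 0.51 (95% interval -0.04 to 1.06) and 0.39 (-0.16 to 0.94).

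Neither Pdia4 nor the co-chaperones and secreted factors passed the test in either mutant. Pdia4 had 50.9, 66.3 and 76.8 FPKM in RIPK1 D138N and 52.7, 68.6 and 54.3 in TNFR1/2 KO, against 47.2, 42.2 and 51.2 in WT, with differences of 0.44 (95% interval -0.15 to 1.03) and 0.31 (-0.28 to 0.90). Dnajb9 had 36.4, 42.3 and 45.6 FPKM in RIPK1 D138N and 37.9, 55.1 and 52.6 in TNFR1/2 KO, against 36.4, 34.3 and 33.3 in WT. Its difference in TNFR1/2 KO was 0.46 (95% interval 0.06 to 0.85, limma adjusted p = 0.0547), just short of the threshold. Sdf2l1 had 30.2, 23.6 and 31.9 FPKM in RIPK1 D138N and 24.2, 33.7 and 26.4 in TNFR1/2 KO, against 17.0, 16.4 and 24.6 in WT. Its differences were 0.55 (95% interval -0.001 to 1.11, limma adjusted p = 0.0872) and 0.53 (-0.02 to 1.08, adjusted p = 0.107). Manf had 153, 146 and 163 FPKM in RIPK1 D138N and 133, 190.4 and 133 in TNFR1/2 KO, against 116, 117 and 115 in WT. Manf was higher in 6 of 6 mutant libraries than in any WT library, and neither difference passed (0.40, 95% interval -0.13 to 0.94, and 0.37, -0.17 to 0.90), with a turned sign after quantile normalization (-0.56 in RIPK1 D138N and -0.51 in TNFR1/2 KO). Creld2 was the other gene with lower values in both mutants: 24.0, 23.2 and 21.5 FPKM in RIPK1 D138N and 29.4, 26.6 and 26.8 in TNFR1/2 KO, against 34.6, 30.8 and 36.0 in WT. The groups did not overlap, and the differences were -0.54 (95% interval -1.14 to 0.06) and -0.28 (-0.88 to 0.32).

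In all, 6 of the 10 genes did not overlap between RIPK1 D138N and WT, against 60.3% of all tested genes, and 8 of 10 between TNFR1/2 KO and WT, against 57.7%. Sham libraries entered these tests through the shared estimate of spread, to which Sham library c added. With Sham library c left out, 5 genes were called in RIPK1 D138N (Herpud1, Hsp90b1 and Sdf2l1 higher, Xbp1 and Creld2 lower). In TNFR1/2 KO 3 were called (Herpud1, Calr and Dnajb9 higher). Of all tested genes 6137 and 5546 were called in that fit. With quantile normalization 7 genes were called in RIPK1 D138N (Herpud1 higher, and Xbp1, Creld2, Hspa5, Manf, Calr and Dnajb9 lower). In TNFR1/2 KO 3 were called (Herpud1 higher, and Xbp1 and Creld2 lower). Of all tested genes 6313 and 5946 were called with quantile normalization. Under it Hspa5, Hsp90b1, Pdia4, Calr, Manf and Dnajb9 stood at -0.51 to -0.19 in TNFR1/2 KO, below WT in sign. Without that step they were above WT.

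**Figure D2:**
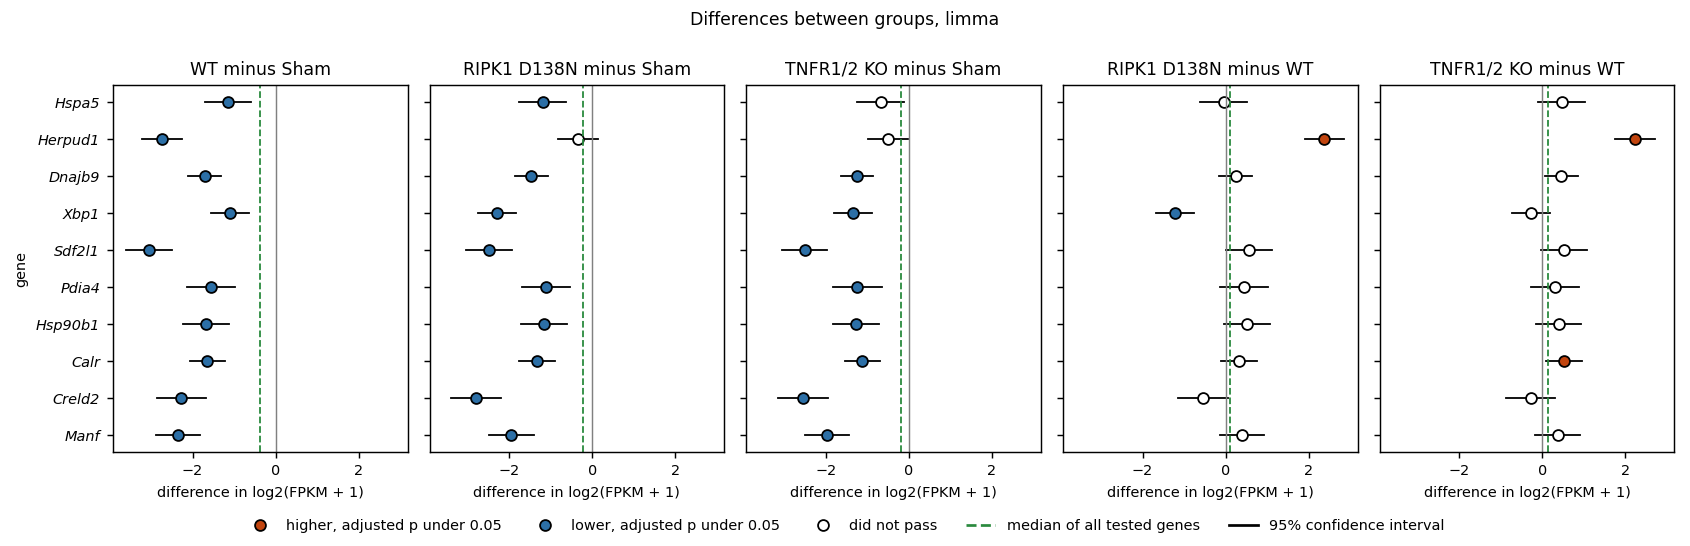
Difference in log2(FPKM + 1) (x axis) of each of the 10 genes (y axis) in 5 comparisons, with 95% confidence intervals and the median of all tested genes as a dashed line. In WT minus Sham all 10 points lie left of 0 (Hspa5 and Xbp1 are right of it with quantile normalization, not plotted), and in the mutants minus WT Herpud1 lies above 2 and Xbp1 in RIPK1 D138N at -1.21.

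Against Sham, 9 of the 10 genes were called lower in RIPK1 D138N, against 22.7% of all tested genes (30.2% in either direction), and 8 in TNFR1/2 KO, against 18.2% (25.6% in either direction). Of all calls 24.9% were higher in RIPK1 D138N and 29.1% in TNFR1/2 KO, and 58% and 58.4% with median-of-ratios scaling. The median difference of the 10 genes was -1.39 in RIPK1 D138N and -1.27 in TNFR1/2 KO, against -0.22 and -0.18 for all genes. Herpud1 was not called in either, with differences of -0.35 (95% interval -0.83 to 0.13, limma adjusted p = 0.254) and -0.50 (-0.98 to -0.02, adjusted p = 0.114). It was also the gene whose mutant libraries overlapped Sham, while the other 9 did not overlap in either mutant (32.4% and 28.8% of all tested genes were non-overlapping and lower). Hspa5 was called in RIPK1 D138N (-1.19, limma adjusted p = 0.00498) and not in TNFR1/2 KO (-0.68, 95% interval -1.25 to -0.12, adjusted p = 0.07). Without Sham library a all 10 genes, Herpud1 and Hspa5 included, were called lower in TNFR1/2 KO, as were 1819 of all tested genes. In RIPK1 D138N the count stayed at 9 in that fit. The largest differences from Sham were those of Creld2, at -2.81 in RIPK1 D138N and -2.55 in TNFR1/2 KO, and Sdf2l1, at -2.49 and -2.52. Xbp1 differed from Sham by -2.30 in RIPK1 D138N and by -1.35 in TNFR1/2 KO. Without the Xist-positive libraries the differences of Hspa5 and Hsp90b1 in RIPK1 D138N from Sham were -0.82 and -1.32. These values rest on 1 RIPK1 D138N library, with the spread taken from the other groups, so neither p-values nor calls of that fit are given.

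Set directly against each other, the mutants differed in 0 of the 10 genes by limma, against 0.93% of all tested genes, and 1 passed at an unadjusted p under 0.05, as did 1444 of all tested genes. Of the 109 genes called 37.6% were higher in RIPK1 D138N, and 48.5% of the calls with median-of-ratios scaling. The 1 gene was Xbp1, with a difference of -0.94 for RIPK1 D138N minus TNFR1/2 KO (SE 0.212, 95% interval -1.40 to -0.48, limma adjusted p = 0.0595). A lower difference was found in 215 of the 11718 tested genes (1.83%). Without Sham library c the limma adjusted p of Xbp1 was 0.0395. Without the Xist-positive libraries its difference was -0.59, again with 1 RIPK1 D138N library. Xbp1 and Creld2 were the 2 genes without overlap between the mutants, against 17.1% of all tested genes. Hspa5 had a difference of -0.51 (95% interval -1.07 to 0.05, adjusted p = 0.469), and Herpud1 differed by 0.15 (-0.33 to 0.63).

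Ratios between 2 genes of the same library do not change when each library is multiplied by 1 factor, as in median-of-ratios scaling, but quantile normalization does change them. The ratios given here were chosen after the values were seen and are descriptions. Herpud1 over Hspa5 was 0.402, 0.727 and 0.722 in RIPK1 D138N and 0.453, 0.309 and 0.379 in TNFR1/2 KO, against 0.0912, 0.121 and 0.117 in WT and 0.313, 0.371 and 0.311 in Sham. WT libraries were the lowest, and RIPK1 D138N replicates 2 and 3 the highest. Xbp1 over Hspa5 was 0.102, 0.101 and 0.106 in RIPK1 D138N and 0.147, 0.138 and 0.136 in TNFR1/2 KO, against 0.221, 0.211 and 0.273 in WT and 0.239, 0.240 and 0.198 in Sham. Neither mutant overlapped WT or Sham, and the mutants did not overlap each other. With Calr as the denominator, Xbp1 was at 0.259, 0.171 and 0.168 in RIPK1 D138N and 0.352, 0.335 and 0.302 in TNFR1/2 KO, against 0.586, 0.535 and 0.591 in WT and 0.365, 0.412 and 0.391 in Sham. The groups again did not overlap, but RIPK1 D138N replicate 1, the Xist-negative one, stood above replicates 2 and 3, so the close agreement of the 3 over Hspa5 depends on the denominator. Sdf2l1 over Hspa5 was 0.0514, 0.0572 and 0.0830 in RIPK1 D138N and 0.0441, 0.0494 and 0.0368 in TNFR1/2 KO, against 0.0323, 0.0357 and 0.0577 in WT and 0.195, 0.134 and 0.150 in Sham. For Sdf2l1 all 3 groups of the ischemia arm lay below Sham and overlapped among themselves in part.

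**Figure D3:**
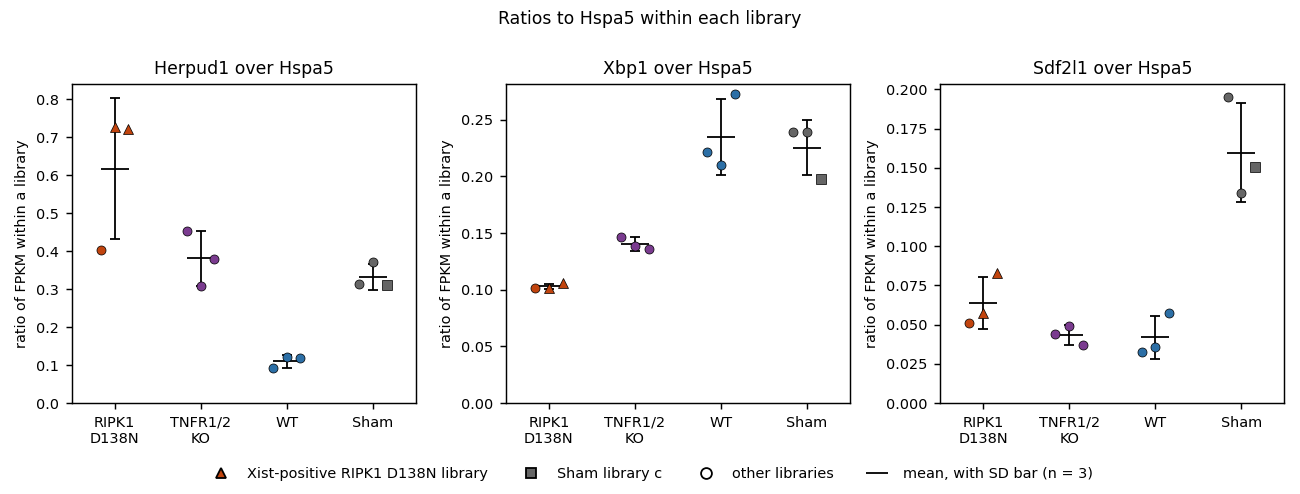
Ratio of the FPKM of Herpud1, Xbp1 or Sdf2l1 to that of Hspa5 in the same library (y axis, from 0), by group, with the mean and SD of 3 libraries. Herpud1 over Hspa5 lies at 0.309 or more outside WT and at most 0.121 in WT, and Xbp1 over Hspa5 lies at 0.101 to 0.106 in the 3 RIPK1 D138N libraries, which over Calr (not plotted) spread over 0.168 to 0.259.

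Around these 10 genes, lists of the other parts of ER proteostasis were counted, beside 41.9% lower and 16.4% higher calls of all tested genes in WT against Sham. Of 14 other ER chaperones and co-chaperones tested, 11 were called lower in WT than in Sham and 0 higher, with a median difference of -1.16. Dnajb11, a BiP co-chaperone, was at 27.1 ± 0.359 FPKM in WT and 148 ± 55.8 in Sham (SD, n = 3 each; difference -2.35, limma adjusted p = 2.97e-06). In RIPK1 D138N 7 of the 14 were called higher and 0 lower than in WT, and in TNFR1/2 KO 6 and 0, beside 29.8% and 29.6% of all tested genes called higher, but with quantile normalization 4 higher and 2 lower, and 2 higher and 2 lower. Median-of-ratios scaling gave 3 higher and 1 lower in TNFR1/2 KO. Sil1, a nucleotide exchange factor of BiP, was at 32.3 ± 1.99 FPKM in RIPK1 D138N and 29.8 ± 3.81 in TNFR1/2 KO, against 15.7 ± 0.516 in WT (limma adjusted p = 8.98e-05 and 0.000275). Of 20 disulfide and proline folding enzymes, 16 were lower and 2 higher in WT than in Sham, 13 higher and 1 lower in RIPK1 D138N than in WT, and 11 higher and 1 lower in TNFR1/2 KO than in WT. Erp44, a thiol oxidoreductase of the secretory pathway, was at 42.0 ± 9.89 FPKM in RIPK1 D138N and 38.9 ± 3.55 in TNFR1/2 KO, against 13.8 ± 0.535 in WT (limma adjusted p = 7.49e-05 and 0.000133). Ero1l, the oxidase that reoxidises disulfide isomerases, ran opposite to the list. It was at 3.07 ± 0.656 FPKM in RIPK1 D138N and 5.63 ± 1.61 in TNFR1/2 KO, against 42.5 ± 12.2 in WT, and WT was above the 3.41 ± 0.376 of Sham (difference 3.26, limma adjusted p = 3.58e-07).

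Of 20 genes of ER-associated degradation, the process to which Herpud1 belongs, 16 were called lower in WT than in Sham and 0 higher. In RIPK1 D138N 9 were higher and 5 lower than in WT, and in TNFR1/2 KO 9 higher and 2 lower, but with quantile normalization lower calls outnumbered higher ones in both (3 higher and 7 lower, 3 higher and 6 lower). Sel1l, the scaffold of the HRD1 ligase, was at 11.9 ± 0.848 FPKM in RIPK1 D138N and 11.8 ± 1.38 in TNFR1/2 KO, against 4.89 ± 0.642 in WT (limma adjusted p = 0.00321 and 0.00404). Syvn1, which encodes HRD1, was at 13.9 ± 3.19 FPKM in WT and 69.1 ± 53.6 in Sham (difference -1.98, limma adjusted p = 0.000872), and Rnf5, a membrane ubiquitin ligase, was at 44.0 ± 6.30 in RIPK1 D138N and 42.2 ± 7.39 in TNFR1/2 KO, against 13.1 ± 0.595 in WT. Of 24 translocon and N-glycosylation genes 22 were lower in WT than in Sham and 0 higher. Of the 24, 11 were higher and 1 lower in RIPK1 D138N than in WT, and 9 higher and 0 lower in TNFR1/2 KO, but 2 higher and 4 lower, and 1 higher and 5 lower, with quantile normalization. Srprb, a subunit of the signal recognition particle receptor, was listed at 0 in all WT libraries and is given no fold. Of 22 ER to Golgi transport genes 18 were lower and 1 higher in WT than in Sham, with 9 higher and 1 lower in RIPK1 D138N than in WT, and 12 higher and 1 lower in TNFR1/2 KO, but 6 and 6, and 6 and 4, with quantile normalization. Sar1b, a small GTPase that builds COPII coats, was at 192.5 ± 8.87 FPKM in RIPK1 D138N and 155.5 ± 32.2 in TNFR1/2 KO, against 52.1 ± 10.6 in WT.

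The ATF4 and CHOP list ran the other way in most of its tested genes, and it shares Ero1l with the folding enzymes. The activity of PERK was not tested. Of its 16 tested genes 9 were called higher in WT than in Sham and 2 lower, with a median difference of 1.43. The 2 lower were Atf5, at 62.9 ± 10.75 FPKM in WT and 183 ± 45.36 in Sham, and Asns, at 5.652 ± 1.049 and 16.54 ± 5.046. In RIPK1 D138N 0 were higher and 13 lower than in WT, and in TNFR1/2 KO 0 and 10. Atf4 itself was not called in WT against Sham and was lower in both mutants than in WT. Ddit3, which encodes CHOP, was higher in WT than in Sham and was not called in either mutant against WT. Atf3, a stress-induced transcription factor, was at 131 ± 41.65 FPKM in WT and 2.84 ± 0.716 in Sham (difference 5.07, limma adjusted p = 6.63e-08). Trib3, a pseudokinase induced by CHOP, was at 2.23 ± 0.519 FPKM in RIPK1 D138N, against 12.98 ± 2.22 in WT (difference -2.11, limma adjusted p = 4.37e-06). Of 9 UPR sensors and processing genes 2 were called higher in WT than in Sham and 2 lower, but median-of-ratios scaling gave 4 higher and 0 lower. Ern1, at 7.24 ± 0.807 FPKM in WT and 2.19 ± 0.360 in Sham (limma adjusted p = 3.28e-05), and Eif2ak3 were higher, and Atf6, at 5.50 ± 0.638 in WT and 9.61 ± 1.79 in Sham (adjusted p = 0.00338), and Creb3l3, whose sign turned with quantile normalization (0.33), were lower. With median-of-ratios scaling neither Atf6 (-0.20, limma adjusted p = 0.27) nor Creb3l3 (-0.33, adjusted p = 0.222) was called. In the mutants 5 of the 9 in RIPK1 D138N and 4 in TNFR1/2 KO were lower than in WT, and 0 higher. Between the mutants 0 genes of any of these lists were called by limma.

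Scaling moved these counts without turning the ATF4 and CHOP list, which had 12 called higher in WT than in Sham and 1 or 0 lower with median-of-ratios scaling or quantile normalization, and 0 higher in either mutant than in WT. The other lists shrank: lower calls in WT against Sham were 8, 15, 8, 16 and 12 with median-of-ratios scaling and 6, 10, 8, 6 and 9 with quantile normalization, in the order chaperones, folding enzymes, degradation, translocon, ER to Golgi. Without Sham library c the lower calls in WT against Sham in those lists were 11, 16, 14, 21 and 16. Calls without the Xist-positive libraries are not given for these lists, because 1 RIPK1 D138N library is left.

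**Figure D4:**
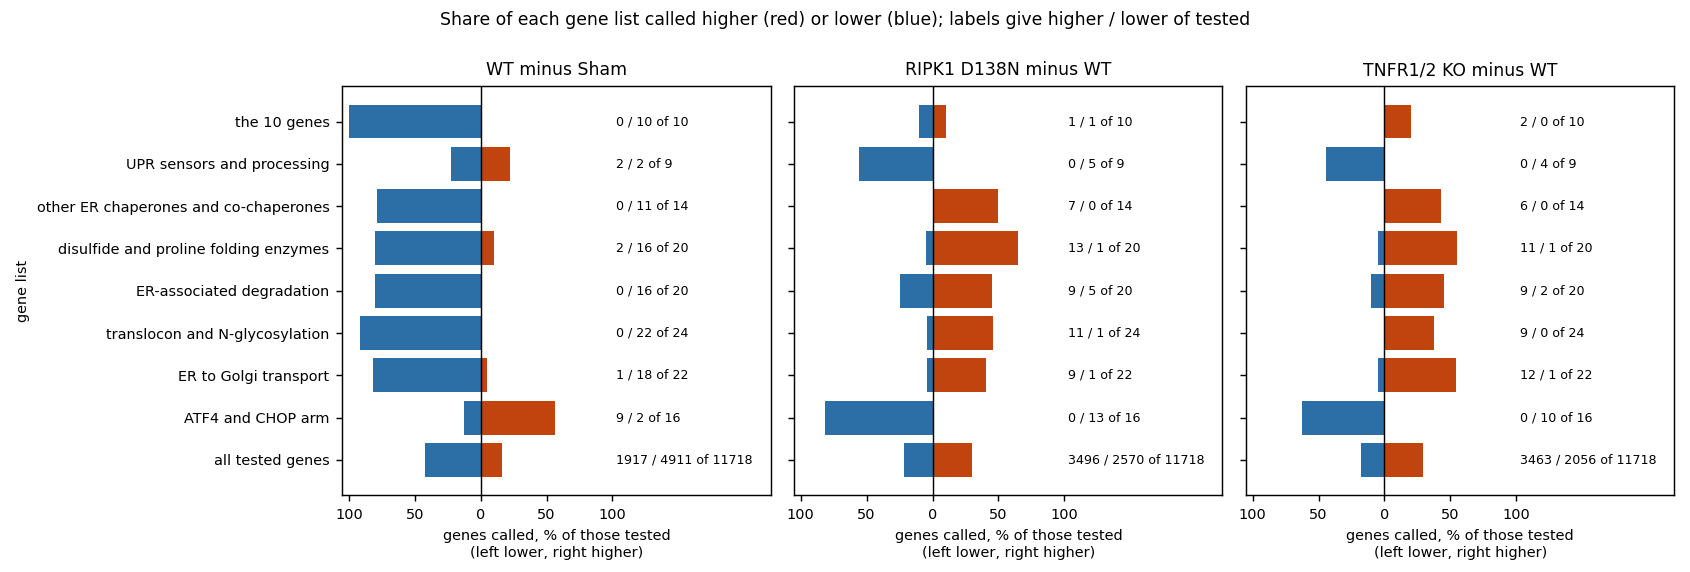
Share of the tested genes of each list (rows) called higher (right of 0) or lower (left of 0) in 3 comparisons, in percent of the tested genes (x axis), with the counts beside each bar. In WT minus Sham the 10 genes and the lists of ER folding, degradation, translocation and transport have lower calls in most of their genes. In the ATF4 and CHOP list 9 of 16 genes are higher. With quantile normalization 5 of the 10 genes have a lower call, and the translocon list 6 of 24. Lower calls of all tested genes are 4911, and 3165 with quantile normalization.

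The summed level of 12 hepatocyte markers was 42670 to 49050 FPKM in RIPK1 D138N, 35290 to 48240 in TNFR1/2 KO, 10740 to 15930 in WT and 52780 to 67470 in Sham. Of the 11 tested, 11 were lower in WT than in Sham, 9 were higher and 1 lower in RIPK1 D138N than in WT, and 8 higher and 2 lower in TNFR1/2 KO than in WT. The median difference of these markers was -2.29 in WT against Sham, 1.73 in RIPK1 D138N against WT and 1.79 in TNFR1/2 KO against WT. With quantile normalization 5 were called lower in WT than in Sham (median -0.51), and the medians were 0.89 in each mutant against WT. In the mutants against WT, 9 and 8 of the 11 tested markers were called higher, and 1 and 2 of the 10 genes. The shares of all tested genes called higher were 29.8% and 29.6%. Alb, the defining gene of hepatocytes, was listed at 0 in every library, Trf at 0 in WT and Serpina1c at 0 in TNFR1/2 KO, and such zeros can be failed estimates. Trf and Serpina1c are counted among the calls above and enter the sums and medians. Outside WT, Trf averaged 7403 FPKM in RIPK1 D138N, 6757 in TNFR1/2 KO and 7276 in Sham. In bulk liver, fewer cells of a type and less RNA per cell cannot be told apart. Plasma cells are rich in Xbp1, Hspa5 and Derl3. Of 13 plasma and B cell markers 6 were tested, and Jchain, Igkc, Derl3 and Xbp1 itself were lower in WT than in Sham. Jchain stood at 6.72 ± 0.815 FPKM in RIPK1 D138N, 3.97 ± 0.758 in TNFR1/2 KO, 1.10 ± 0.443 in WT and 5.27 ± 1.57 in Sham. Derl3 stood at 0.808 ± 0.379 FPKM in RIPK1 D138N, 1.52 ± 0.466 in TNFR1/2 KO, 2.24 ± 0.527 in WT and 5.69 ± 4.10 in Sham. In RIPK1 D138N against WT the list split, with Jchain and Igkc higher and Derl3 and Xbp1 lower, and in TNFR1/2 KO Jchain and Igkc were higher and 0 lower. Tnfrsf17, a receptor of plasma cells, stayed at or under 0.1415 FPKM in all libraries. Of 10 tested Kupffer cell and macrophage markers 6 were lower in WT than in Sham and 1 higher, and of 6 tested neutrophil markers 0 were called by limma in any comparison. In WT against Sham, higher and lower calls were 0 and 0 of 3 tested T and NK cell markers. They were 2 and 3 of 10 endothelial, 5 and 0 of 11 stellate and fibroblast, and 3 and 0 of 5 cholangiocyte markers. In the same order they were 3 and 0, 5 and 2, 4 and 2, and 1 and 1 in RIPK1 D138N against WT. In TNFR1/2 KO against WT they were 2 and 0, 1 and 2, 0 and 4, and 1 and 2. Summed endothelial markers stood at 24.76, 144.3 and 97.56 FPKM in RIPK1 D138N replicates 1, 2 and 3. They stood at 72.95, 14.79 and 48.91 in TNFR1/2 KO, and at 34.18, 30.04 and 27.96 in WT. The part of any cell type in the values of the 10 genes was not tested.

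The genes whose pattern was most like the mean of the 10 were ranked by the root mean square difference of centred log2(FPKM + 1) over the 12 libraries. Of 5542 genes compared, the closest were Arhgef26 (0.202), Dnaja3 (0.204), Stx5a (0.220), Atxn7l3b (0.221), Sec24d (0.222), Rmnd5a (0.222), Alg2 (0.223), Sdsl (0.227), Clpx (0.229) and Dnajb11 (0.231), with a median of 0.709 over all genes compared. On the same measure Calr (0.161), Dnajb9 (0.174) and Hsp90b1 (0.198) lay nearest to the mean to which they belong. Pdia4 and Manf followed at 0.243, then Hspa5 at 0.354, Sdf2l1 at 0.485, Creld2 at 0.522 and Xbp1 at 0.555. Herpud1, at 0.833, was farther from it than the median gene. The mean centred level of the 10 was -0.37 in RIPK1 D138N, -0.20 in TNFR1/2 KO, -0.67 in WT and 1.25 in Sham.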

How the data were processed

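Liver RNA was sequenced in 12 libraries, 3 in each of 4 groups, extracted with Trizol and prepared with an NEB RNA Ultra kit per the labels' protocols. The authors deposited 1 table of FPKM values per gene; Cufflinks 2.2.1, Cuffdiff, STAR 2.5.4a and the build mm10 are named, per the submitters' processing notes. FPKM removes transcript length and library size but not the effect of a few abundant genes on the rest. The table gives no counts, so depth was estimated from the whole-number steps of low values. Ratios between libraries came from values under 0.3 FPKM (65 of 66 library pairs within 0.5%). The scale came from 1664 genes under a higher limit. Columns of both mutants matched their replicate numbers, and those of WT and Sham only their group.

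Of rows that shared a symbol the one with the highest mean was kept, which dropped 131 rows. From the deposited FPKM, log2(FPKM + 1) was fitted with limma 3.58.1 (R 4.3.3), with a mean-variance trend, 4 group means over all 12 libraries and 11718 genes at 1 FPKM or more in at least 3 libraries; all 10 genes passed. Called means a Benjamini-Hochberg adjusted p under 0.05 over all tested genes. Intervals are 95%. The fit was tested on simulated data. Other pseudocounts, filters, scalings and left-out libraries were tried as alternatives. Leaving out Sham library c together with the Xist-positive libraries, and the ratios to Hspa5, were chosen after seeing the data. The 10 genes, the lists and the tests were chosen with earlier results of these data known. Named genes were the 10 genes, some of the largest called changes of each list, and the 10 genes most like the mean of the 10. Other genes, such as Atf4, Ddit3 and some cell type markers, were named outside that rule.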

Additional observations from a re-analysis of the deposited data

How the results depend on the processing

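Of the values of single genes under the alternatives, 1422 kept their side of the threshold, 22 passed it newly and 20 lost it. A further 6 reversed sign with a call in the main fit or in the alternative. The 1422 include values that changed sign without a call in either fit. All 6 reversed with quantile normalization: Hspa5 (0.23) and Xbp1 (0.18) in WT against Sham, Calr (-0.55), Manf (-0.56) and Dnajb9 (-0.43) in RIPK1 D138N against WT, and Calr (-0.19) in TNFR1/2 KO against WT; the cause was not tested. The count of the 10 genes called became 5 in WT against Sham and 7 in RIPK1 D138N against WT under it. With only the 2 groups fitted the count became 5 in RIPK1 D138N against WT. In TNFR1/2 KO against WT it became 1 with a pseudocount of 5, with no filter or at an adjusted p under 0.01. Genes called in all in these fits were, in that order, 6101, 6313, 5959, 5409, 5781 and 3948. Leaving out 1 library gave 2 to 5 in RIPK1 D138N against WT, 1 to 3 in TNFR1/2 KO against WT and 0 to 1 between the mutants. It gave 8 to 10 in TNFR1/2 KO against Sham.

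Genes called in all were 6828 in WT against Sham, 4217 with a mean of at least 5 FPKM, which tests fewer genes, and 6013 to 7010 with 1 library left out. In RIPK1 D138N against WT they were 6066, 3658 and 4988 to 6302, and in TNFR1/2 KO against WT 5519, 3367 and 4543 to 5770. In RIPK1 D138N against Sham they were 3537, 2139 and 2249 to 3786, with 1743 at an adjusted p under 0.01, 1043 without the Xist-positive libraries, and 742 without these and Sham library c. In TNFR1/2 KO against Sham they were 3002, 1907 and 1856 to 3262, with 1432 at an adjusted p under 0.01. Between the mutants they were 109, with 60 without the filter, 20 with only the 2 groups fitted, 28 at an adjusted p under 0.01, 39 without the Xist-positive libraries, 40 without these and Sham library c, and 27 (without RIPK1 D138N replicate 3) to 588 (without RIPK1 D138N replicate 1) with 1 library left out.

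With the replicate number as a block between the mutants, 0 of the 10 genes and 11 genes in all were called, and Xbp1 had a limma adjusted p of 0.357. Deviations of same-numbered libraries correlated at -0.098, -0.202 and 0.057, and those of differently numbered ones at -0.082 to 0.18. With so few libraries these values cannot show whether same-numbered libraries shared a batch. No paired analysis was possible because WT and Sham columns match no single replicate number, for the comparisons with these groups. The largest estimated counting error of each of the 10 genes was below its coefficient of variation in every group, except for Manf in WT (an error of up to 1.26% beside a coefficient of variation of 0.53%).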
